A study of Mus musculus with 10 samples.

Results

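Antisense long-read isoforms are full-length cDNA models that lie over an annotated gene but run on the opposite strand. They were taken as every isoform that the deposited classification of the CD4SP or the CD8SP long-read library places in its antisense category, whatever its exon number. There were 4370 of them among 17765 isoforms, 2172 of 8289 in the CD4SP library and 2198 of 9476 in the CD8SP library. Each one is described by the gene opposite, its exon number, its length, the percent of A in the 20 genomic bases after its 3′ end, and its presence in both lineages.

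The study set out to compare alternative splicing between the helper and cytotoxic T cell lineages. Cells were mature thymocytes of C57BL/6 mice aged 6 to 8 weeks. CD4SP cells (CD4+CD8-TCRβ+CD24-) were sorted from thymocytes depleted of CD8-expressing cells, and CD8SP cells (CD8+CD4-TCRβ+CD24-) from thymocytes depleted of CD4-expressing cells, with 2 or 3 thymi pooled per sample. Each lineage had 1 PacBio long-read library, and 4 short-read lanes that were deposited as 1 pooled transcript assembly. Neither lineage therefore has a replicate here, and the intervals and tests below cover the counting of isoforms or genes, not differences between mice.

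An antisense transcript is made from the strand opposite a gene, and such transcripts can overlap the gene's promoter, introns or end, where some are known to act on the gene they face. Most mRNAs end in a tail of A that is added after a signal such as AATAAA, and long-read cDNA is commonly started from a primer of T that pairs with this tail. The same primer can pair with a run of A inside an RNA, and for this reason isoform classifiers list the percent of A that the genome itself holds after each 3′ end.

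The windows after the 3′ ends show what most antisense isoforms had in common. Each sequence below gives the 20 bases of the antisense strand that follow a 3′ end, 5′ to 3′, on GRCm38, with the longest run of A in capitals, as read from GENCODE M21 transcripts. The first 7 had 65% A or more, as most antisense isoforms did. They face Ets1 (a transcription factor of T cells), Btg1 (which restrains proliferation), Ms4a4b (a membrane protein of T cells), Notch2 (a receptor of the Notch pathway), Sbno1, Imp4 (needed for ribosomal RNA processing) and G3bp1 (a core protein of stress granules). The G3bp1 window is less typical: exactly 65% A was held by 1.15% of CD4SP and 1.36% of CD8SP antisense isoforms, and AATAAA stood shortly before its 3′ end.
Ets1, both libraries, chr9:32754742-32754761, minus strand: tAAAAAAAAAAAAAAAAAAA
Btg1, both libraries, chr10:96618800-96618819, minus strand: AAAAAAAAAAAAAAAgaaag
Ms4a4b, CD4SP, chr19:11465422-11465441, minus strand: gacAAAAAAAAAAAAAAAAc
Notch2, CD4SP, chr3:98149785-98149804, minus strand: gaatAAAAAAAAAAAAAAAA
Sbno1, both libraries, chr5:124373264-124373283, plus strand: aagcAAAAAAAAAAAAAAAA
Imp4, both libraries, chr1:34447019-34447038, minus strand: aattAAAAAAAAAAAAAAAA
G3bp1, CD4SP, chr11:55500274-55500293, minus strand: tcAAAAAAAAAAAAAtttct

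The windows of 4 isoforms from the small group below 60% A are shown for contrast. They face Kdm8 (a Jumonji family enzyme), Zbtb7a (a zinc finger repressor), Arl4c (a small GTPase) and Nufip2 (an RNA-binding protein), and none of them has a run of A over 4 bases.
Kdm8, CD4SP, chr7:125462213-125462232, minus strand: tgAAAAtatttaagttacat
Zbtb7a, CD4SP, chr10:81148376-81148395, minus strand: ccAcctgcaccatcgtctcc
Arl4c, CD8SP, chr1:88699910-88699929, plus strand: tAAAtgtctgaaacctatca
Nufip2, CD8SP, chr11:77710904-77710923, minus strand: ggAAcccaatcttgctctaa

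These windows come from the placed single-exon isoforms for which all 20 bases could be read from an annotated transcript, 60 in CD4SP and 68 in CD8SP. The percent of A read from the transcript sequences equalled the deposited value in 60 of 60 and 68 of 68 of them. A run of at least 10 A was present in 55 of 60 windows (91.7%) in CD4SP and in 57 of 68 (83.8%) in CD8SP, with a median run of 16 bases in each library. Most placed 3′ ends fell in an intron, as given below, and the readable windows cover few of those ends. In both libraries the Ets1, Btg1, Sbno1 and Imp4 windows were at the same position to the base. The Ms4a4b, Notch2, G3bp1 and Kdm8 windows are printed for CD4SP, but a CD8SP 3′ end lay within 10 bases of each.

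An A-rich window was nearly universal among antisense isoforms. With A-rich defined as 60% A or more, 2056 of the 2172 CD4SP isoforms (94.7%, exact 95% interval 93.6 to 95.6) and 2085 of the 2198 CD8SP isoforms (94.9%) had one. The share did not differ between the libraries beyond counting error (difference -0.20 points, adjusted exact p = 0.786, 2-sided Fisher's exact test with Benjamini-Hochberg adjustment over 22 comparisons, here and below). Intergenic isoforms, which lie over no annotated gene, had an A-rich window in 84.9% and 83.8% of cases (adjusted exact p = 1.26e-08 and 1.67e-13 against antisense isoforms). All other isoforms had one in 53.2% and 49.6% of cases. The most frequent value was exactly 90% A, held by 1460 CD4SP (67.2%) and 1455 CD8SP antisense isoforms (66.2%) against 38.4% and 31.5% of intergenic isoforms.

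**Figure D1:**
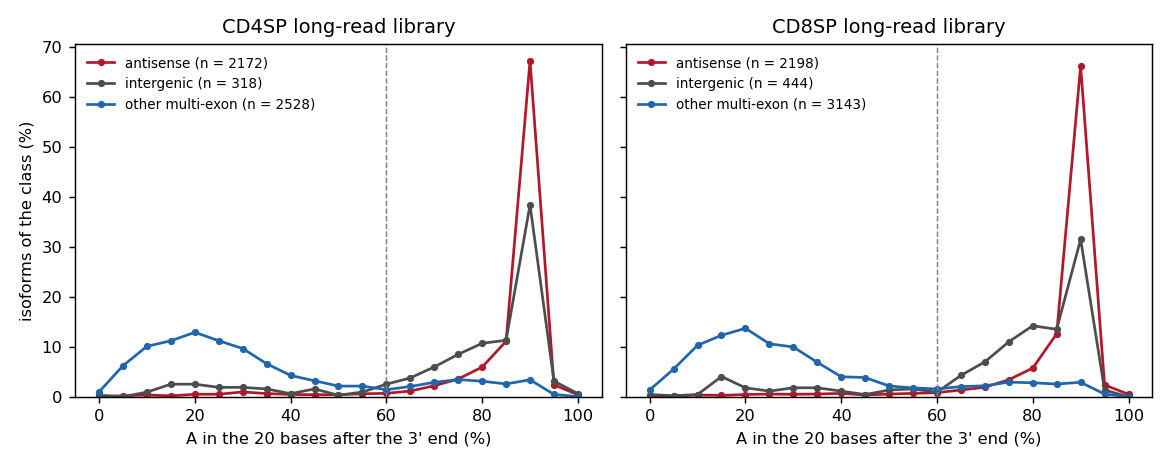
Share of isoforms (percent, vertical axis) at each percent of A in the 20 bases after the 3′ end (horizontal axis), for antisense, intergenic and other multi-exon isoforms of each library, with a dashed line at 60%. Antisense isoforms peak at 90% A, with 67.2% of them in CD4SP and 66.2% in CD8SP, while other multi-exon isoforms are spread over low values.

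Most antisense isoforms were unspliced. A single exon was listed for 1944 CD4SP isoforms (89.5%, exact 95% interval 88.1 to 90.8) and for 1993 CD8SP isoforms (90.7%, 89.4 to 91.9), and the libraries did not differ beyond counting error (adjusted exact p = 0.226). The single-exon share of all other isoforms was 58.7% in CD4SP and 56.8% in CD8SP (adjusted exact p = 1.66e-172 and 1.83e-216). Intergenic isoforms were still more often unspliced, at 94.0% and 95.5% (adjusted exact p = 0.016 and 8.29e-04).

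The excess of A after the 3′ end was seen among single-exon and among multi-exon isoforms. Among single-exon isoforms, 96.6% of antisense isoforms in CD4SP and 96.0% in CD8SP were A-rich, against 77% and 74.0% of other single-exon isoforms (adjusted exact p = 4.69e-96 and 1.90e-115). The other single-exon isoforms were a mixed group. Those of the class NIC, which combine known splice sites or retain annotated introns, were A-rich in 86.6% and 85.5%, much nearer to the antisense isoforms. Incomplete matches to annotated transcripts were A-rich in 16.7% and 12.9%. Among multi-exon isoforms, 78.5% and 83.4% of antisense isoforms were A-rich, against 19.4% and 17.5% of other multi-exon isoforms (adjusted exact p = 3.12e-73 and 8.12e-86). Multi-exon antisense isoforms had fewer exons than the others, so isoforms of exactly 2 exons were also compared, a choice made after seeing the data. There, 157 of 204 antisense isoforms in CD4SP (77%, exact 95% interval 70.6 to 82.6) and 150 of 178 in CD8SP (84.3%, 78.1 to 89.3) were A-rich, beside 240 of 621 (38.6%, 34.8 to 42.6) and 249 of 689 (36.1%, 32.5 to 39.9) of all others. The few intergenic multi-exon isoforms were A-rich in 63.2% and 65.0% of cases, which did not differ from the antisense ones beyond counting error (adjusted exact p = 0.176 and 0.0771).

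Antisense isoforms were about as long as the rest. Their median length was 2963 bases in CD4SP (quartiles 2257.75 and 3787) and 2753 bases in CD8SP (quartiles 2136 and 3425.25), beside medians of 2852 and 2553.5 bases for all other isoforms. The shortest CD4SP isoform, of 180 bases, faced Doc2b, which encodes a calcium sensor of vesicle release, and the longest, of 7725 bases, faced Trabd. In CD8SP the shortest, of 211 bases, faced Ddx5, an RNA helicase, and the longest, of 6354 bases, faced Map3k12, a kinase. A coding frame was predicted in 522 CD4SP (24.0%) and 505 CD8SP isoforms (23.0%), with a median of only 117 and 114 residues.

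Antisense isoforms made up 26.2% of the CD4SP library (exact 95% interval 25.3 to 27.2) and 23.2% of the CD8SP library (22.3 to 24.1). The difference of 3.01 points exceeded counting error (adjusted exact p = 6.25e-06). Without isoforms of 60% A or more it was 0.91 points and no longer passed the test (adjusted exact p = 0.0548). The share itself was then 3.89% in CD4SP and 2.99% in CD8SP, with 116 and 113 antisense isoforms left. The loss of the call does not show that the A-rich isoforms carried the difference.

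The antisense isoforms faced 1652 genes in CD4SP and 1730 in CD8SP, 2260 in either. A gene opposite on the other strand was found for 2302 of 2302 and 2326 of 2326 isoform and gene pairs that matched the annotation, as the category requires. Protein-coding genes were 1537 of 1645 matched genes (93.4%) in CD4SP and 1587 of 1725 (92.0%) in CD8SP. Most genes faced a single isoform, 1232 and 1329 of them, while 136 and 125 faced 3 or more. A sense isoform in the same library was listed for 74.1% of the genes opposite in CD4SP and 75.2% in CD8SP.

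Of the 2260 genes opposite, 1122 were found in both libraries, which is 67.9% of the CD4SP genes and 64.9% of the CD8SP genes. The overlap was of the same order as for genes with sense isoforms, of which 2295 were shared, 75.7% of the CD4SP genes and 63.7% of the CD8SP genes. A pair with the same gene, length and exon number in both libraries was found for 463 isoforms. The overlap was smaller for spliced antisense isoforms, whose 205 CD4SP and 190 CD8SP genes had 73 in common (35.6% and 38.4%).

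Long genes and highly expressed genes more often had an antisense isoform. Among genes with a sense isoform, split into quartiles by the length of the gene body, the share with an antisense isoform was 19.0%, 28.4%, 50.7% and 63.7% from shortest to longest in CD4SP. In CD8SP it was 17.7%, 27.6%, 45.0% and 54.5%. The genes opposite had a median body of 58199 bases in CD4SP and 54220 bases in CD8SP, beside 24909 and 26250 bases for genes with sense isoforms only.

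The relation to expression was read from the short-read FPKM (fragments per kilobase of transcript, scaled to library size) of protein-coding genes at 1 FPKM or more. From the lowest to the highest FPKM quartile, 7.85%, 11.8%, 18% and 26.4% of genes had an antisense isoform in CD4SP, and 7.71%, 13.6%, 19.0% and 23.6% in CD8SP. It was present in long and in short genes. With bodies of 50 kb or more the shares went from 19.3% to 48.7% in CD4SP and from 18.8% to 47.7% in CD8SP, and with shorter bodies from 4.70% to 15.2% and from 4.53% to 13.9%.

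**Figure D2:**
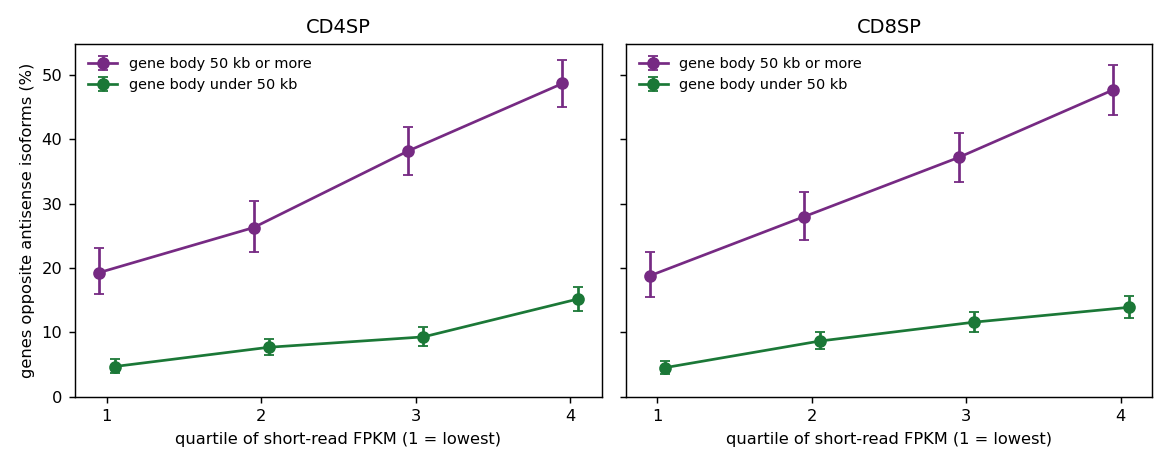
Percent of protein-coding genes with an antisense long-read isoform (vertical axis) in quartiles of short-read FPKM (horizontal axis), for gene bodies under 50 kb and of 50 kb or more, in CD4SP and CD8SP; bars are exact 95% intervals. In the long genes the share rises from 19.3% to 48.7% in CD4SP and from 18.8% to 47.7% in CD8SP.

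The 10 genes named for their number of antisense isoforms had bodies of 57300 to 597384 bases. Foxp1, a forkhead factor that keeps naive T cells quiescent (chr6:98925338-99522721, minus strand, 597384 bases), faced 12 antisense isoforms in CD4SP and 9 in CD8SP. Maml2, a coactivator of Notch signalling, faced 10 and 8. Pitpnc1, a phosphatidylinositol transfer protein, faced 9 and 9, and Satb1, an organiser of chromatin in thymocytes (chr17:51736187-51833290, minus strand), faced 9 and 8.

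The remaining genes of this kind had 2 to 8 in each library. Ube2h and Ube2k, ubiquitin-conjugating enzymes, faced 8 and 6, and 6 and 5 isoforms. Ambra1, a regulator of autophagy, faced 7 and 7, and Sbno1 faced 6 and 4. The counts were less alike for Bach2, a repressor that restrains effector genes, with 6 in CD4SP and 2 in CD8SP, and for Akap13, an anchor of protein kinase A, with 2 and 6. No test was run on these counts.

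Many antisense isoforms had nearly the length of a sense isoform of the gene they face. The 2 Fyn antisense isoforms are an example: 1985 bases beside a sense isoform of 1983 bases in CD4SP, and 1979 beside 1984 in CD8SP. Fyn is a Src family kinase of T cell receptor signalling. A length partner is a sense isoform of the gene opposite, in the same library, whose length differs by at most 30 bases. Satb1 had antisense isoforms of 3408, 5664 and 3803 bases in CD4SP beside sense isoforms of 3422, 5670 and 3805 bases, and of 3408 and 3597 bases in CD8SP beside 3417 and 3595. Pitpnc1 had antisense isoforms of 2288, 3967 and 4864 bases in CD4SP beside sense isoforms of 2284, 3965 and 4868 bases, and the 2286-base antisense isoform of CD8SP stood beside one of 2281 bases. Length partners were found for 8 of 12 Foxp1 antisense isoforms in CD4SP and 8 of 9 in CD8SP, and for 8 of 10 and 7 of 8 opposite Maml2. They were found for 7 of 9 and 5 of 9 opposite Pitpnc1, and for only 4 of 9 and 3 of 8 opposite Satb1. Opposite Btg1 there were 0 of 2 in each library. Foxp1, Maml2, Pitpnc1 and Satb1 had 7 to 20 sense isoforms per library to match against. The Fyn, Satb1 and Pitpnc1 isoforms whose lengths are given are single-exon models with an A-rich window, while several of the Foxp1 and Maml2 isoforms have 2 exons.

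Length partners were frequent across the whole set. A sense isoform of the gene opposite was listed for 1796 CD4SP antisense isoforms (82.7%) and 1833 CD8SP isoforms (83.4%). Of these, 1146 (63.8%) and 1123 (61.3%) had a length partner. Over all 5711 CD4SP pairs of an antisense and a sense isoform of one gene, 1194 differed by 0 to 30 bases, while 72, 82 and 67 lay in 3 windows of the same width that start 100 bases further apart each (101 to 131 bases, 201 to 231 and 301 to 331). In CD8SP the counts over 5687 pairs were 1165, and then 70, 85 and 96.

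**Figure D3:**
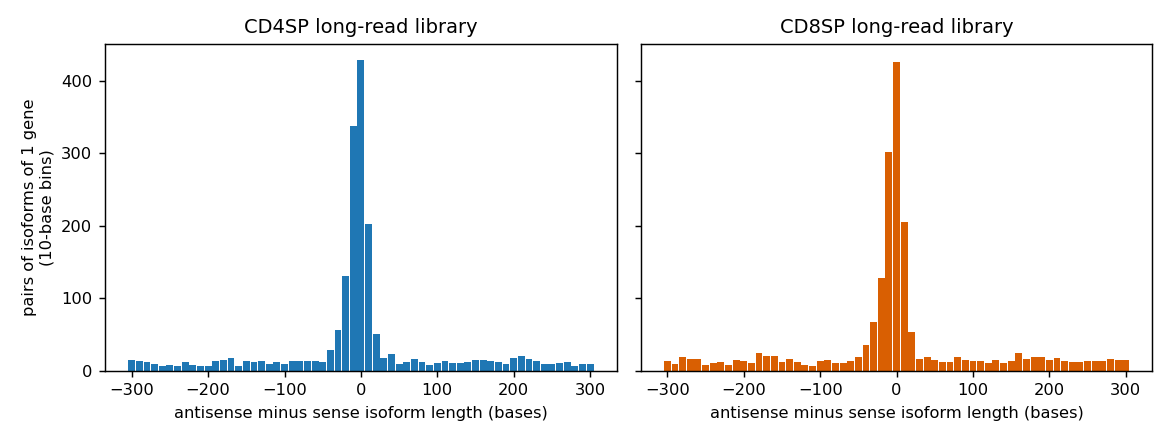
Number of isoform pairs (vertical axis) by antisense minus sense length in bases (horizontal axis) for all pairs of an antisense and a sense isoform of the same gene in one library, in 10-base bins from -300 to 300. Both libraries have a narrow peak around 0, with 1194 CD4SP and 1165 CD8SP pairs within 30 bases.

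The partners were also compared in exon number and A content. Their median antisense minus sense length, -3 bases in each library, was bound to be small, since partners were chosen within 30 bases. The same exon number was listed for 93.5% of CD4SP and 93.0% of CD8SP pairs. Of the partnered antisense isoforms, 1069 of 1146 and 1052 of 1123 were single-exon, so this share mainly describes unspliced pairs. The sense partner was itself A-rich in 89.9% and 89.1% of cases. It was single-exon in 95.8% and 95.5%, and 80.2% and 82.1% of sense partners were of the class NIC, which holds isoforms that combine known splice sites or retain annotated introns, while full splice matches were 7.07% and 5.52%.

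Partners were rarer where the antisense isoform lacked an A-rich window or was spliced. Of A-rich antisense isoforms with a sense isoform to compare, 65.7% in CD4SP and 62.6% in CD8SP had a partner, beside 22 of 86 (25.6%) and 22 of 74 (29.7%) of those below 60% A. Single-exon antisense isoforms had one in 66.6% and 63.4% of cases. Spliced isoforms with non-canonical junctions had one in 64 of 131 (48.9%) and 61 of 138 (44.2%), and those with canonical junctions in 13 of 59 (22.0%) and 10 of 37 (27.0%).

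Seen from the sense side, the A content of the sense isoform went with the presence of an antisense partner. Of single-exon A-rich sense isoforms, 1010 of 2504 in CD4SP (40.3%, exact 95% interval 38.4 to 42.3) and 978 of 2699 in CD8SP (36.2%, 34.4 to 38.1) had an antisense length partner. Of single-exon sense isoforms below 60% A, 101 of 786 (12.8%, 10.6 to 15.4) and 100 of 1012 (9.88%, 8.11 to 11.9) had one. Multi-exon sense isoforms below 60% A had one in only 21 of 2030 (1.03%) and 28 of 2586 cases (1.08%).

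Coordinates were compared for the isoforms that could be placed. The deposited tables give genomic positions only for predicted coding frames, so single-exon isoforms with a frame were placed from them, 469 in CD4SP (24.1% of single-exon antisense isoforms) and 449 in CD8SP (22.5%). Where an antisense isoform and its sense isoform of nearest length, within 30 bases, were both placed, the ends of both lay within 50 bases of each other in 90 of 91 CD4SP pairs (98.9%) and 77 of 79 CD8SP pairs (97.5%), and the remaining 1 and 2 pairs did not overlap. Without regard to length, a placed sense isoform overlapped 109 and 94 of the placed antisense isoforms. Both ends were within 50 bases of each other in 96 (88.1%) and 81 (86.2%), and within 30 bases in 57 (52.3%) and 54 (57.4%).

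The small offsets had a common direction. Among the pairs with both ends within 100 bases, 98 and 82, the 5′ end of the antisense isoform lay beyond the 3′ end of the sense isoform in 92 and 77, by a median of 22.0 bases (quartiles 16.25 and 27.75) and 23.5 bases (15 and 29). The 5′ end of the sense isoform lay beyond the 3′ end of the antisense isoform in 97 and 81, by a median of 27.0 bases (24.0 and 31.0) and 26.0 bases (21.25 and 30). In 91 and 76 pairs both held, so each strand's isoform began past the point where the other ended. The window of 20 bases after each 3′ end, in which A is counted, was thus of a size with the offset, and both isoforms were A-rich in 81 and 69 pairs.

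**Figure D4:**
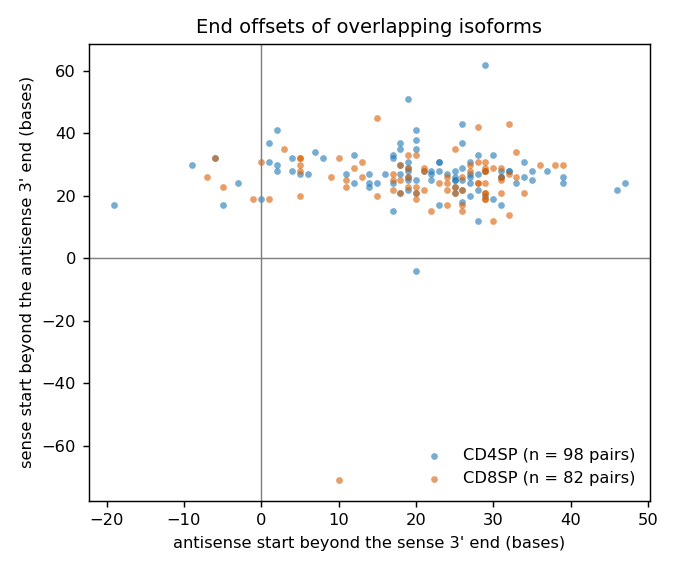
Placed pairs of an antisense and a sense isoform with both ends within 100 bases: bases by which the antisense 5′ end lies beyond the sense 3′ end (horizontal axis) and the sense 5′ end beyond the antisense 3′ end (vertical axis), 1 point per pair, coloured by library. Most points lie above 0 on both axes, 91 of 98 in CD4SP and 76 of 82 in CD8SP.

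Single pairs make this concrete. In CD8SP the Git2 antisense isoform, opposite a GTPase-activating protein, spanned chr5:114738323-114741340 (3018 bases). The sense isoform there, a full splice match, spanned chr5:114738332-114741366 (3035 bases), with offsets of 9 and 26 bases. The single-exon antisense isoform opposite Bcl2l1, which encodes the survival protein Bcl-xL, spanned chr2:152823314-152826175 in CD8SP (2862 bases). The sense isoform spanned chr2:152823319-152826207 (2889 bases), with offsets of 5 and 32 bases.

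The placed antisense isoforms lay mostly inside the gene opposite. Their 3′ end fell in an intron in 396 of 469 CD4SP cases (84.4%) and 367 of 449 CD8SP cases (81.7%), in an untranslated or noncoding exon in 60 (12.8%) and 70 (15.6%), in a coding exon in 1 and 0, and outside the gene in 8 and 10. The whole isoform was intronic in 203 (43.3%) and 172 (38.3%), and it lay within the gene and touched an exon in 222 (47.3%) and 231 (51.4%). Only 40 and 44 crossed a gene boundary, where an isoform inside any gene opposite was counted as inside. Over all placed isoforms, 8 and 10 covered the annotated start of the longest overlapping gene opposite, and 43 and 51 covered its annotated end. The 2 rules differ, so these counts are not parts of those that crossed a boundary.

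The 3′ ends recurred in both lineages. Among placed isoforms, 163 had a 3′ end at the identical base in the other library (34.8% in CD4SP and 36.3% in CD8SP). Within 10 bases there were 245 (52.2% and 54.6%) and within 100 bases 253 (53.9% and 56.3%), so few further matches came from the wider limit. Of the 259 genes with placed isoforms in both libraries, 251 had a 3′ end shared within 100 bases. Placing needs a single exon and a predicted frame in each library, which can favour genes where the same stretch was recovered in both. The 251 therefore do not describe all 1122 genes opposite found in both libraries.

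The polyadenylation signal was looked for as AATAAA or ATTAAA on the isoform's own strand in the 40 bases before the 3′ end, where annotated exons allowed them to be read. It was found in 8 of 61 CD4SP antisense isoforms (13.1%, exact 95% interval 5.84 to 24.2) and in 8 of 70 CD8SP isoforms (11.4%, 5.07 to 21.3). Placed sense single-exon isoforms below 60% A had it in 105 of 132 (79.5%, 71.7 to 86.1) and 150 of 180 cases (83.3%, 77.1 to 88.5). A-rich sense single-exon isoforms had it in 10 of 130 (7.69%, 3.75 to 13.7) and 19 of 140 (13.6%, 8.37 to 20.4). The antisense isoforms were thus near the A-rich sense isoforms and far from the others. The readable antisense isoforms below 60% A were 2 and 5, with the signal in 0 of 2 and 0 of 5, which allows shares of up to 84.2% and 52.2%.

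**Figure D5:**
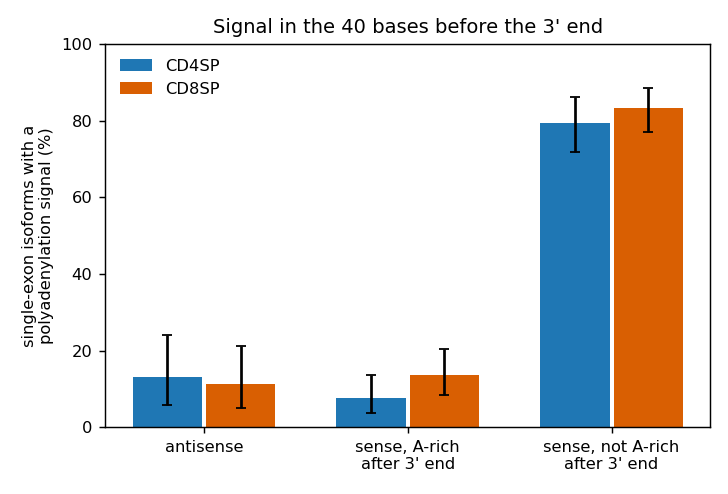
Percent of placed single-exon isoforms with AATAAA or ATTAAA in the 40 bases before the 3′ end (vertical axis, bars with exact 95% intervals) for antisense, A-rich sense and other sense isoforms of each library. Antisense bars stand at 13.1% and 11.4%, beside 79.5% and 83.3% for sense isoforms below 60% A.

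Spliced antisense isoforms were few, 228 in CD4SP and 205 in CD8SP. Of these, 204 and 178 had 2 exons, 24 and 27 had 3 or more, and the most exons was 24 in each library. Junctions were canonical, with the usual intron letters on the antisense strand, in 75 of 228 (32.9%) and 45 of 205 (22.0%), a difference beyond counting error (adjusted exact p = 0.0172). Isoforms of the class NNC, which also use splice sites outside the annotation, had canonical junctions in 35.7% in CD4SP (adjusted exact p = 0.533 against antisense) and in 34.6% in CD8SP (adjusted exact p = 9.60e-04). Canonical spliced antisense isoforms were A-rich in 46 of 75 and 28 of 45 cases, the others in 133 of 153 and 143 of 160. The deposited tables also flag junctions that could come from a template switch of reverse transcriptase between direct repeats. The flag was set for 112 of 228 (49.1%) and 102 of 205 (49.8%) spliced antisense isoforms, and for 40 of 75 and 24 of 45 of the canonical ones. It was set for 9.69% and 9.55% of other multi-exon isoforms, most of which had canonical junctions. Within the class NNC the flag was more frequent, at 26.5% and 23.3%, but still below the antisense isoforms. The part of template switching in the spliced antisense isoforms was not tested.

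Of the antisense isoforms with 3 or more exons, 20 of 24 in CD4SP and 20 of 27 in CD8SP had a sense isoform to compare, and 10 and 9 had a length partner. The exon number was equal in some of these pairs and not in others. In CD4SP the 3-exon antisense isoforms opposite Git2 and Nipbl had partners of 1 and 2 exons. A 5-exon one opposite Bcl2l1 had a partner of 3 exons. Mycbp2, a large ubiquitin ligase (chr14:103113411-103346814, minus strand), faced an antisense isoform of 24 exons and 4816 bases in CD4SP and 4796 bases in CD8SP, beside 26-exon sense isoforms of 4819 and 4807 bases. Pik3cg, the catalytic gamma subunit of phosphoinositide 3-kinase (chr12:32173473-32208659, minus strand), faced an 11-exon antisense isoform of 4523 bases in each library. Its sense isoforms were full splice matches of 11 exons and of 4534 and 4539 bases. These Mycbp2 and Pik3cg antisense isoforms had non-canonical junctions and a window of 85% or 90% A, while their sense partners stood at 25% to 35% A.

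Bcl11b, a transcription factor needed for T cell commitment (chr12:107910403-108003602, minus strand), faced spliced antisense isoforms with length partners in both libraries. These had non-canonical junctions and 75% A, but their sense partners were A-rich too, at 80% to 90% A. The 3-exon Bcl11b antisense isoforms of 3164 bases in CD4SP and 3166 bases in CD8SP stood beside 3-exon sense isoforms of 3145 and 3142 bases. The 4-exon forms were of 3361 and 3374 bases in CD4SP and 3382 bases in CD8SP, beside sense isoforms of 3361 and 3359 bases. Bcl2l1 also had 3-exon antisense isoforms of 2407 and 2409 bases beside full splice matches of 2417 and 2414 bases. Mbnl1, a regulator of splicing, had a 9-exon antisense isoform of 4147 bases in CD8SP beside a 9-exon sense isoform of 4167 bases.

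For 13 spliced antisense isoforms the predicted frame crossed introns, so the intron bases inside it could be compared with the annotated introns of the gene opposite. They were equal to the base in 3 of 8 CD4SP and in 5 of 5 CD8SP isoforms. Examples are the 72050 intron bases of the 3-exon Bcl11b isoforms in both libraries and the 48257 of 4-exon forms. For Tox, a nuclear factor of thymocyte selection, the 248513 intron bases in CD8SP equalled the sum of 3 annotated introns. The isoforms that matched had non-canonical junctions. Only sums of intron bases were compared, each with the closest sum over the transcripts of the gene opposite, so single introns and their positions were not matched. Fig4, a phosphoinositide phosphatase, faced a CD8SP isoform of 23 exons and 3199 bases and had no sense isoform in that library.

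Of the 106 genes of a T cell list (coreceptors, signalling, transcription factors, homing), 30 faced antisense isoforms in CD4SP and 29 in CD8SP, 23 in both and 36 in either. Sense isoforms were listed for 51 and 63 of the 106. Over all genes with a sense isoform, 40.4% in CD4SP and 36.1% in CD8SP faced antisense isoforms. Over expressed coding genes the share ran from 7.85% to 26.4% and from 7.71% to 23.6% between the lowest and highest FPKM quartile. Whether the T cell list differs from genes of like expression and length was not tested. The T cell genes faced 66 antisense isoforms in CD4SP, of which 56 were single-exon and 65 A-rich, and 63 in CD8SP, of which 51 and 59 were. A length partner was found for 38 of 63 (60.3%) and 33 of 63 (52.4%) with a sense isoform to compare. The lineage-defining genes Cd4, Cd8a and Cd8b1 and the receptor subunit Cd3e faced none, like most genes of the list.

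Several T cell genes faced antisense isoforms of like or equal length in both lineages. Lck, the kinase that starts T cell receptor signalling (chr4:129548344-129573641, minus strand), faced 1 single-exon isoform of 1541 bases with 90% A in each library, beside sense isoforms of 1555 and 1545 bases. Ets1 (chr9:32636221-32757820, plus strand) faced isoforms of 3060 and 3064 bases that both ended at position 32754762, just before the run of 19 A shown above. Lef1, a partner of beta-catenin (chr3:131110471-131224356, plus strand), faced isoforms of 3189, 3708 and 3539 bases in both libraries and a 2-exon isoform of 2979 bases in CD8SP. Its 3189- and 3708-base isoforms had identical coordinates in CD4SP and CD8SP, at chr3:131189795-131192983 and chr3:131189276-131192983. Itgal, the alpha chain of the integrin LFA-1, faced 2-exon isoforms of 2807 bases with 85% A and 2808 bases with 90% A. For Lck, Itgal and the 3539-base Lef1 isoform only the lengths were compared, since these isoforms could not be placed.

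Other T cell genes faced antisense isoforms in 1 library. In CD4SP these were Runx1 and its partner Cbfb, the ubiquitin ligase Cblb, the receptor chain Cd247, the lipid kinase Dgka, Foxo1 and the cytokine receptor Il6ra. In CD8SP they were Itgae (the alpha chain of CD103, an integrin of CD8 cells), the phosphatases Ptpn22 and Ptpn6, the transcription factor Tcf7, the exchange factor Vav1 and the kinase Zap70. Itgae (chr11:73090583-73147446, plus strand) faced 3 isoforms, all 2-exon and non-canonical, of 1888, 1434 and 1667 bases with 75% A and no length partner. Presence of an isoform in a long-read library has no replicate and no read count behind it, so absence from the other library is not shown.

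The short reads gave the level of the genes opposite in each lineage. A gene was called higher in a lineage with at least 1 FPKM there, a 2-fold difference on the log2(FPKM + 0.1) scale and intervals that do not overlap. Among the 9618 genes at 1 FPKM or more, CD8SP was the higher lineage for 965 (10%) and CD4SP for 458 (4.76%). Among genes with antisense isoforms in both libraries, CD8SP was higher for 45 of 1009 (4.46%) and CD4SP for 28 (2.78%), both under the background. Where the antisense isoform was listed in CD8SP only, 46 of 457 (10.1%) were higher in CD8SP and 13 (2.84%) in CD4SP. Where it was listed in CD4SP only, 21 of 450 (4.67%) were higher in CD4SP and as many in CD8SP. The shares in the matching direction were thus near those of all genes. They were above those of genes with antisense isoforms in both libraries, 10.1% against 4.46% in CD8SP and 4.67% against 2.78% in CD4SP. No test was run on these shares. The median log2 ratio (CD8SP over CD4SP) was 0.06 for genes in both libraries, 0.06 for CD4SP only and 0.21 for CD8SP only, beside 0.22 for all genes. Scaling the short reads so that the median gene is unchanged shifts these by 0.21, to -0.16, -0.15 and 0.00.

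Genes opposite were expressed at higher levels than genes in general. Those found in both libraries had a median of 12.2 FPKM in CD4SP and 12.9 FPKM in CD8SP, beside 6.23 and 7.29 FPKM for all genes at 1 FPKM or more. The summed FPKM of a gene lay outside its own summed interval for 325 genes opposite in each lineage (17.0%), which limits the weight of single values.

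Levels were also set beside the T cell genes with antisense isoforms in 1 library. Of the 7 with isoforms in CD4SP only, 2 were called higher in CD4SP, beside 4.76% of all genes. Runx1, a regulator of Cd4 silencing, was at 29.0 FPKM in CD4SP and 7.41 FPKM in CD8SP (log2 ratio -1.95), and Il6ra at 8.35 and 3.14 FPKM (log2 ratio -1.38). Of the 6 with isoforms in CD8SP only, 2 were called higher in CD8SP, beside 10% of all genes. These counts are too small to compare with the share over all genes. Itgae was at 0.763 FPKM in CD4SP and 46.0 FPKM in CD8SP (log2 ratio 5.74, with the CD8SP value outside its own interval of 53.2 to 57.6), and Ptpn22 at 26.2 and 57.3 FPKM (log2 ratio 1.13).

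The other 9 of those 13 genes were not called. Of the 23 with isoforms in both libraries, 1 was called. This was Cd28, the costimulatory receptor, at 73.5 FPKM in CD4SP and 21 FPKM in CD8SP (log2 ratio -1.80, with the CD8SP value outside its own interval of 15.4 to 16.6). It faced an antisense isoform of 5149 bases in CD4SP and one of 2365 bases in CD8SP, beside sense isoforms of 5168 and 2372 bases. Maml2 was at 11.7 and 4.76 FPKM (log2 ratio -1.28), with 10 and 8 antisense isoforms, and its CD4SP value lay outside its own interval of 13.1 to 14.6. Fewer RNAs per cell and fewer expressing cells cannot be told apart in these pooled samples.

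Short-read assembly seldom held an antisense transcript at these genes. A stranded assembled transcript on the antisense strand, over no gene of its own strand, was present for 149 of 1427 protein-coding genes opposite in CD4SP (10.4%, exact 95% interval 8.90 to 12.1) and for 153 of 1435 in CD8SP (10.7%, 9.11 to 12.4). Coding genes with no antisense long-read isoform had one in 365 of 7482 (4.88%) and 362 of 7545 cases (4.80%). The gap was smaller within gene length. It was 12.5% and 13.6% against 9.07% and 8.31% for bodies of 50 kb or more, and 7.51% and 6.97% against 3.79% and 3.88% for shorter ones. Most assembled transcripts carried no strand, 584183 of 686660 in CD4SP and 540449 of 637618 in CD8SP, and these were all single-exon, so unspliced antisense RNA could mostly not be seen this way.

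The genes opposite canonical spliced isoforms had a short-read antisense transcript in 9 of 72 (12.5%) and 7 of 41 cases (17.1%). Bach2 faced a 2-exon canonical isoform of 2753 bases in CD4SP, and the short reads held a 2-exon antisense transcript of 1.45 FPKM at chr4:32305534-32356719. Foxp1 faced a 2-exon canonical isoform of 3142 bases in CD4SP, with a 2-exon short-read transcript of 2.58 FPKM at chr6:99239374-99297220. The Bach2 and Foxp1 isoforms had 70% and 80% A, and the Foxp1 isoform had a length partner of 3167 bases. Both are long genes, with bodies of 347305 and 597384 bases. Whether the long and short transcripts share a junction was not tested, since the long-read tables give no junction positions.

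The identity of the sorted cells was checked on the short reads. Cd4 was at 107 FPKM in CD4SP and 1.69 FPKM in CD8SP, Cd8b1 at 32.9 and 505 FPKM, and Zbtb7b, the factor of the helper lineage, at 22.5 and 0.0606 FPKM. Cd3e was at 169.8 and 170.3 FPKM. Markers of other cells were low, with Cd79a of B cells listed at 0 in both, H2-Ab1 at most 1.32 FPKM and Hbb-bs at 3.67 and 3.17 FPKM, while Cd79b was at 0.583 and 5.49 FPKM and Pecam1, which T cells can also express, at 22.4 and 14.8 FPKM.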

How the data were processed

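Long-read cDNA came from total RNA by SMARTer synthesis and short-read libraries from rRNA-depleted total RNA, per the labels' protocols. The submitters' processing notes name GRCm38, GSNAP, RSEM 1.3.1, FastQC, Trimmomatic, TopHat2 2.0.14 and Cufflinks 2.1.1, without roles. The deposited long-read tables list per isoform its category, length, exons, coding frame and, per the file headers, the percent of A downstream of its end. Their read count columns are blank, so it is unknown how many reads support an isoform, and each was counted once. The deposited short-read files hold FPKM with intervals per transcript, per the file headers, with 4 lanes pooled per lineage. A deposited table of TPM was not used. A value of 0 FPKM can also mean that the estimate failed.

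Members and gene lists were chosen with earlier results of these data known. Shares have exact Clopper-Pearson 95% intervals and 2-sided Fisher's exact tests, which treat isoforms as independent although those of one gene share a source. Gene FPKM summed RefSeq transcripts (30000 of 30589 and 29999 of 30589 matched a symbol) and spliced assembled transcripts sharing introns with exactly 1 gene. No genome was used, so the planned placing of deposited sequences was replaced: single-exon isoforms were placed from their frame's coordinates and letters read from GENCODE M21 transcripts. For the polyadenylation signal, sense single-exon isoforms replaced the planned full splice match and intergenic ones.

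Genes were named by rule: up to 15 genes with antisense isoforms in both libraries and the most exons, up to 10 with 3 or more antisense isoforms, T cell list genes with any, and for each library the longest, the shortest and the 5 with most exons. Genes of the printed windows, the placed pairs and the intron comparison were chosen after their values were seen. Scripts were tested on simulated data. Python 3.11.15, scipy 1.17.1, pandas 2.3.3, numpy 2.4.6 and matplotlib 3.10.9 were used.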

Additional observations from a re-analysis of the deposited data

How the results depend on the processing

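No paired analysis was possible because each lineage has 1 long-read library and 1 file of pooled short-read lanes, and for the same reason no replicate could be left out. Values are for CD4SP and then CD8SP. The antisense share was 32.1% and 29.0% with each locus counted once, 3.89% and 2.99% without isoforms of 60% A or more, and 8.27% and 6.12% among multi-exon isoforms. The difference between libraries fell to 0.91 points without isoforms of 60% A or more. The single-exon share was 57.8% and 69.9% without isoforms of 60% A or more, and 88.0% and 89.3% with each locus once. The A-rich share was 95.7% and 96.1% at a limit of 50% A, 87.1% and 87.4% at 80%, 92.9% and 93.3% with each locus once by its least A-rich isoform, and 96.6% and 96.0% in single-exon isoforms, where the difference turned from -0.20 to 0.52 points (adjusted exact p = 0.419). The 1122 shared genes became 73 for multi-exon isoforms, 29 without isoforms of 60% A or more, and 251 for placed isoforms with the same 3′ end. Genes with a spliced short-read antisense transcript were 8.90% and 8.92%. Scaling the short reads to a median log2 ratio of 0 shifted ratios by 0.21, and the medians became -0.16 for genes in both libraries, -0.15 for CD4SP only and 0.00 for CD8SP only. Alternatives chosen after seeing the data gave length partners for 43.2% and 41.4% within 10 bases, 70.2% and 68.0% within 100 bases, 66.6% and 63.4% of single-exon and 40.5% and 40.6% of multi-exon isoforms, and 57.4% and 55.3% with each locus once by its least alike isoform. Both ends of placed pairs lay within 30 bases in 52.3% and 57.4%. Where no test or value of another kind shows it, the cause of these shifts was not tested.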
